A study of Mus musculus with 10 samples.

Results

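Apolipoprotein E (Apoe) and 8 further genes of lipoprotein handling were followed through mouse ovarian follicle cells. The 9 genes were taken by symbol from a table of 23234 gene symbols, and all 9 were found in it. They are the apolipoprotein Apoe, the receptors Lrp1, Lrp8 and Vldlr, lipoprotein lipase (Lpl), the sterol exporters Abca1 and Abcg1, and the liver X receptors (LXR) Nr1h3 and Nr1h2. The set was proposed because Apoe had a clearly higher level in cumulus cells of old than of young mice. The comparison of ages is therefore given as values, with no test for any of the 9 genes.

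Apolipoprotein E is a secreted protein that coats lipoprotein particles and binds receptors of the low-density lipoprotein receptor family, which take the particles into the cell. Cells hand cholesterol to apolipoproteins through the transporters ABCA1 and ABCG1, and the genes of both transporters and of apolipoprotein E are known targets of LXR, nuclear receptors that bind oxidised cholesterol. Granulosa cells of the ovary use lipoprotein cholesterol to make steroids, and the blood-follicle barrier lets mainly small, dense lipoproteins into the follicle.

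RNA was sequenced from 10 libraries, and levels are in FPKM, read fragments scaled to transcript length and library size. Of the C57BL/6 strain there were 3 libraries of cumulus cells, the cells around the oocyte, at an age of 2 months, here called young, and 3 at 10 months, here called old. Another 2 libraries of this strain held mural granulosa cells, the lining of the follicle, at an age of 2 months. The cumulus-oocyte complexes (COC) were from animals 3 weeks old that had received PMSG, a gonadotropin that makes follicles grow, and gave 1 library of the strain DBA/2 and 1 of BDF1. The labels' extraction note speaks of mural cells after eCG, another name for PMSG, on every sample, and whether the cumulus donors were primed is not stated. A difference between cumulus and mural cells therefore cannot be told apart from one in priming. All groups share a basic medium that held milrinone, which blocks phosphodiesterase. Nothing says whether replicates are different animals, and the p-values then cover the spread between libraries alone, which may be technical.

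All 8 granulosa markers reached 1 FPKM in each of the 10 libraries. FPKM summed to between 470377 and 603460 per library, and the read depth behind them is unknown. Libraries of 1 group differed in the levels of markers of other cells. Cumulus replicate 3 at 10 months stood apart: its 8 mural markers summed to 1200 FPKM against 58.9 and 394 in replicates 1 and 2, and its erythroid markers to 136 FPKM against 23.2 and 21.9. The oocyte growth factor Gdf9 stood at 54.4, 0.647 and 261 FPKM in the 2-month cumulus libraries, and at 951 and 894 FPKM in the BDF1 and DBA/2 complexes. Age differences of the genes of the set are given with and without this library.

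The promoters of Apoe and Abca1 are shown because, of the genes that passed a filter on low values described below, these 2 had means over 2-fold higher than young cumulus cells both in old cumulus and in mural cells. Abcg1 also did, at levels under 1 FPKM, and is not shown. The choice was made after the values were seen. Each line holds 250 bases before and 50 bases from the transcription start, 5′ to 3′ on the gene's own strand, from RefSeq on build GRCm38.p6. Apoe lies on the minus strand at chr7:19699139-19699438 and Abca1 on the minus strand at chr4:53159846-53160145. Capitals mark matches to an LXR-type motif and to the TATA box.
Apoe: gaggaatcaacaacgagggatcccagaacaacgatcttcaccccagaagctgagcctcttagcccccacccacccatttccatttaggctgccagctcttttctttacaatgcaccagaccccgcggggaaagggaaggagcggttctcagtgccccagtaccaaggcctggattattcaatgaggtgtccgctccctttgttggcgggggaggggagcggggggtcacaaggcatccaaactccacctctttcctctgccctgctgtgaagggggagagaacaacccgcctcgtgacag
Abca1: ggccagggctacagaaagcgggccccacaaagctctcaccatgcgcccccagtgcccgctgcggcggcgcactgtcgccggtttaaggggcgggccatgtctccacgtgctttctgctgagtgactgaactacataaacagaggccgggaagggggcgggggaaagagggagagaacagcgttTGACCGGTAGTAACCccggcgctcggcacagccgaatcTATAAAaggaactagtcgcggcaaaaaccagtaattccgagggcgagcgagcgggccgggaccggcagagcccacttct

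LXR binds with a partner, RXR, to a pair of half-sites spaced by 4 bases. The consensus pair, AGGTCA repeated in the same direction after a gap of 4 bases, was searched on both strands and was in 0 of 13 start windows of 7 genes of the set (Abcg1 and Lpl had no window), and in 0.0152% of 32851 windows of all genes. A looser pair, GGTNA followed after 5 bases by GGTCA, which takes in the consensus pair, was chosen after the Abca1 promoter was seen. It was in 1 of the 13 windows and in 0.207% of all windows. The match lay in the Abca1 promoter, from 67 to 53 bases before the start on the opposite strand. TATAAA, 29 to 24 bases before the Abca1 start, was in 2 of the 13 windows and in 13.6% of all windows. The other was a second start window of Apoe, not printed, with matches on both strands between 100 and 91 bases before that start. The sterol response element of the low-density lipoprotein receptor gene was in 0 of the 13 and in 0.0913% of all windows. A match is a run of letters and not a measured binding site.

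Apoe was the gene of the set with the widest range among the 7 that passed a filter on low values, a mean of at least 1 FPKM over the 8 C57BL/6 libraries. It stood at 7.35, 8.11 and 7.61 FPKM in cumulus cells at 2 months. At 10 months it stood at 28.8, 51.9 and 60.02 FPKM. Every 10-month library lay above every 2-month library, and the lowest old value was 3.55 times the highest young one. The group means were 46.9 ± 16.2 and 7.69 ± 0.387 FPKM (SD, n = 3 each), a 6.10-fold difference and a log2 fold change of 2.40 ± 0.25 (SE, on the log2(FPKM + 1) scale). Without replicate 3 at 10 months the mean was 5.25 times the 2-month mean, and replicate 1 alone was 3.75 times it.

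**Figure D1:**
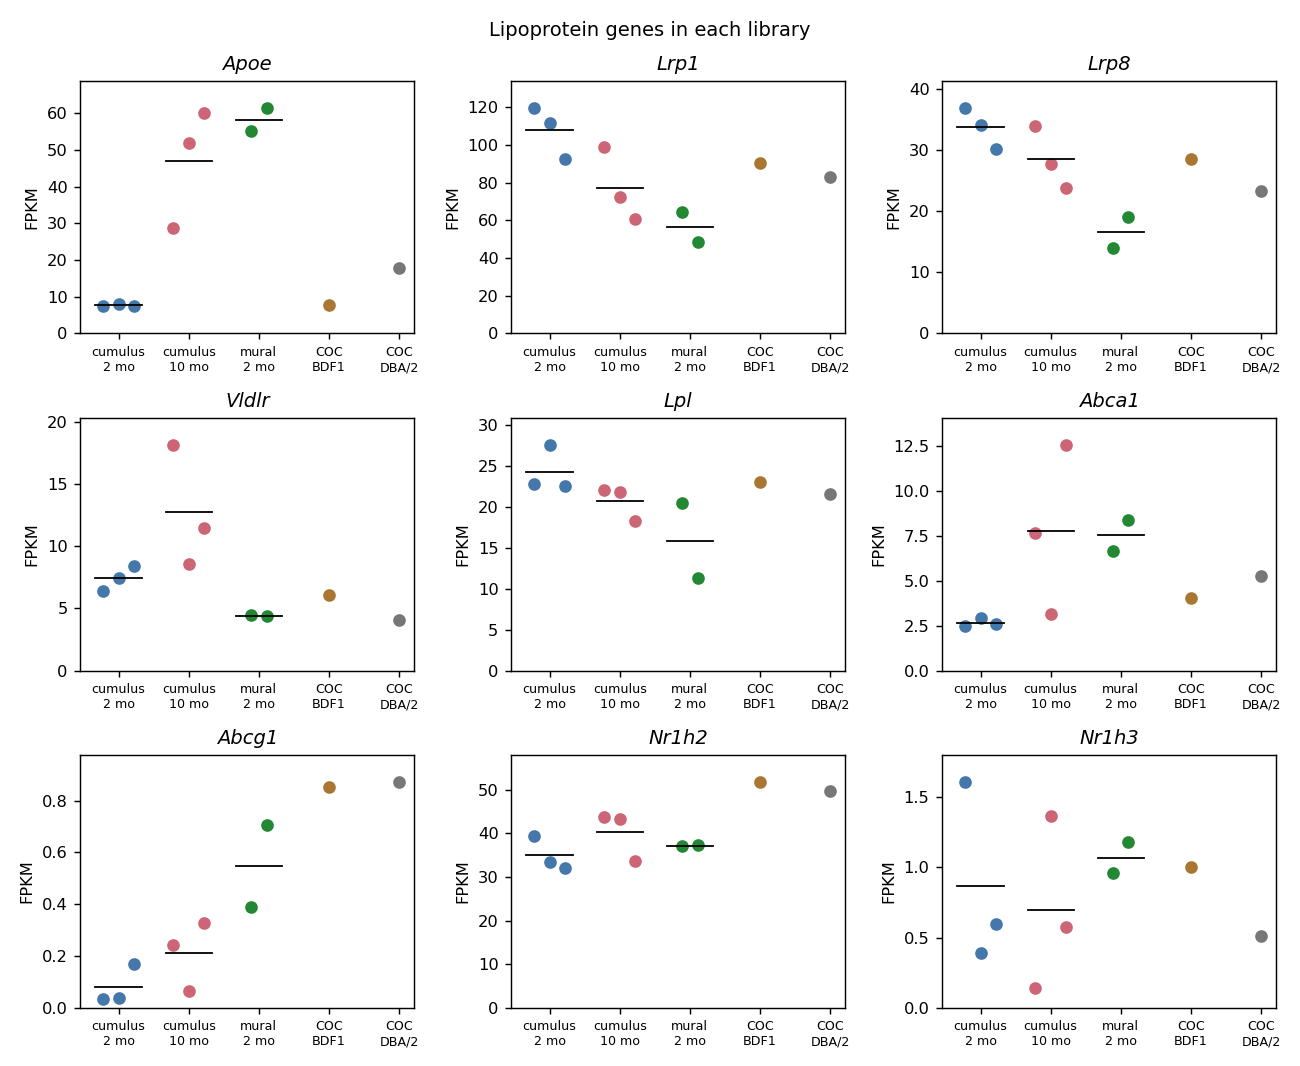
Each panel shows 1 gene, with FPKM on a linear axis from 0, the 5 groups on the x axis, 1 point per library in replicate order and a black line at the mean of groups with replicates. Apoe was at 7.35 to 8.11 FPKM in young cumulus cells, at 28.8 to 60.02 in old cumulus cells and at 55.04 and 61.4 in mural cells.

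The mural libraries held the highest Apoe levels of the groups by mean, at 55.04 and 61.4 FPKM. That placed Apoe at rank 1301 and 1201 of all genes in those libraries, against rank 7222 to 7708 in young cumulus cells and 1253 to 3122 in old ones. Mural and young cumulus cells did not overlap: the means were 58.2 ± 4.48 (n = 2) and 7.69 ± 0.387 FPKM (n = 3), a 7.57-fold difference with a log2 fold change of 2.77 ± 0.28 (SE). No p is given here either, since the same young libraries were part of what singled Apoe out. Mural and old cumulus cells overlapped, as 10-month replicate 3 lay between both mural libraries. The order of the groups by mean was mural, old cumulus, the DBA/2 complex (17.9 FPKM), young cumulus and the BDF1 complex (7.63 FPKM). The BDF1 complex lay inside the range of young cumulus cells, and the DBA/2 complex lay between the young and the old range.

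Markers of other cell types varied between the same libraries. The 22 macrophage and leukocyte markers, cells that are known to make much apolipoprotein E, summed to 6.34 to 9.50 FPKM in young cumulus cells, with 2 or 3 of 22 at 1 FPKM or more. In old cumulus cells they summed to 35.5, 77.6 and 94.5 FPKM, with 11, 15 and 15 of 22 at 1 FPKM. They summed to 29.5 and 77.7 FPKM in mural cells, and to 10.6 and 17.0 FPKM in the BDF1 and DBA/2 complexes. So the library with the lowest Apoe of the old group also had the lowest sum, while mural replicate 1 had as little as old replicate 1 but nearly as much Apoe as mural replicate 2. Aif1, a macrophage marker, was listed at 0 in all 3 young libraries, in old replicate 1 and in both complexes, and Ptprc, the pan-leukocyte marker, did not exceed 0.548 FPKM in any library.

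Lyz2, the lysozyme of macrophages, stood at 0.116, 0.971 and 0.934 FPKM in young and at 6.91, 13.96 and 24.2 FPKM in old cumulus cells. C1qa, a complement component made by macrophages, stood at 0.181 to 0.708 FPKM in young and at 2.84, 7.04 and 4.41 FPKM in old cumulus cells. Csf1r stood at 0.0537, 0 and 0.0868 FPKM in young and at 0.679, 0.545 and 1.36 FPKM in old cumulus cells. Cd68 overlapped, at 1.47, 3.86 and 1.78 FPKM in young and at 1.69, 9.04 and 5.73 FPKM in old cumulus cells. Of the other markers on this list, Fcgr3, Mrc1, Cd163 and Aif1 also overlapped between the ages. The 14 theca and stroma markers summed to 31.3 to 33.6 FPKM in young cumulus, 56.98, 113 and 137 FPKM in old cumulus and 310.05 and 442 FPKM in mural cells. The 8 mural markers, several picked on these libraries earlier, reached 2088 and 4252 FPKM in mural cells and 40.1 to 62.6 FPKM in young cumulus cells. In old replicate 1 they were at 58.9 FPKM, inside the young range, while Apoe there was above it. The 10 endothelial markers summed to 7.38 to 9.42 FPKM in young cumulus, 11.9, 14.2 and 28.3 in old cumulus and 36.4 and 81.6 in mural cells. The 9 surface epithelium markers in the table summed to 27.5 to 35.3 FPKM in young cumulus, 58.99, 59.01 and 123 in old cumulus and 57.3 and 37.1 in mural cells. Both sums were thus without overlap between young cumulus cells and either other group, but the counts of markers at 1 FPKM overlapped between the ages. Of the surface epithelium markers, 2 to 4 reached it in young cumulus, 2, 7 and 9 in old cumulus and 8 in each mural library. Of the endothelial markers, 2 or 3 did in young cumulus, 3, 2 and 7 in old cumulus and 8 and 9 in mural cells. The part of these cells in the Apoe level was not tested, and in such bulk samples fewer cells of a type and less RNA per cell cannot be told apart.

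**Figure D2:**
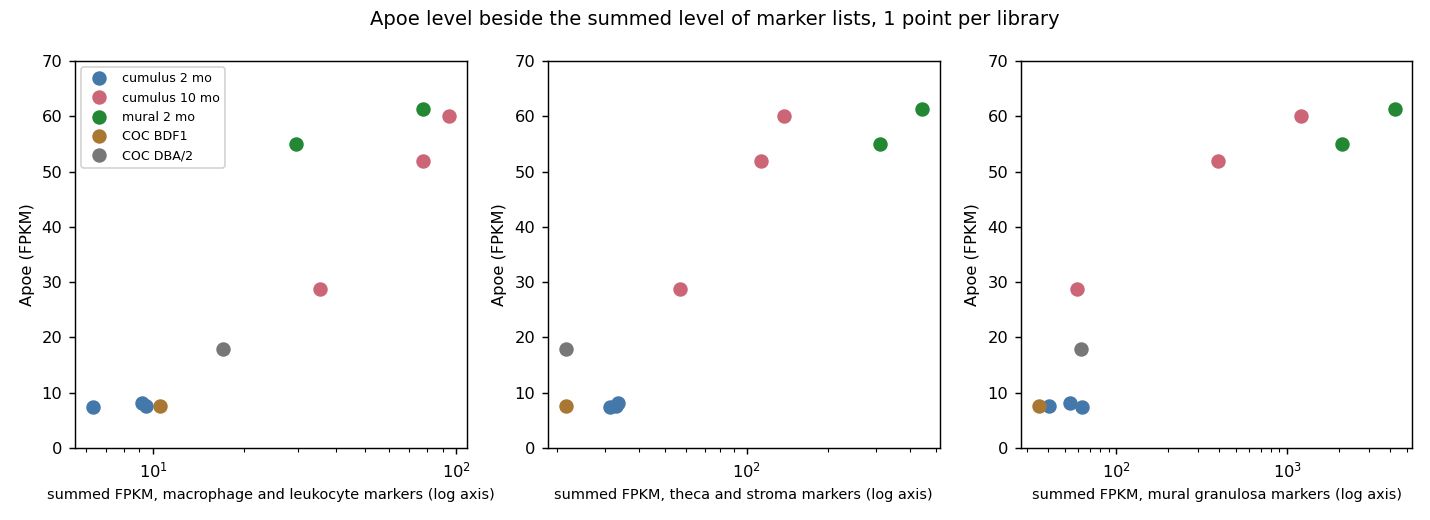
Apoe in FPKM (linear y axis) is plotted against the summed FPKM of macrophage and leukocyte, theca and stroma, and mural granulosa markers (log x axes), 1 point per library. Young cumulus libraries lie at 7.35 to 8.11 FPKM of Apoe with 6.34 to 9.50 FPKM of macrophage markers, and old replicate 1 has mural markers at 58.9 FPKM with Apoe at 28.8.

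The genes beside Apoe on chromosome 7 were read for comparison. Tomm40, which encodes the pore of the outer mitochondrial membrane, stood at 94.7, 73.04 and 51.95 FPKM in young cumulus, 87.6, 70.03 and 48.9 in old cumulus and 47.9 and 46.8 in mural cells, so young and old overlapped. Apoc1, the next apolipoprotein gene, was listed at 0, 0 and 0.705 FPKM in young cumulus and at 0, 1.61 and 9.79 FPKM in old cumulus, and its high value was that of replicate 3. Bcam, a cell adhesion molecule, stood at 0.282 to 0.627 FPKM in young cumulus, at 0.206, 2.06 and 6.52 in old cumulus and at 12.3 and 14.0 in mural cells, so that old replicate 1 was below all young libraries. Apoc2, a cofactor of lipoprotein lipase, did not exceed 0.443 FPKM in any library. Apoe itself overlapped no other gene in the RefSeq annotation.

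By a rule based on the distance between profiles, 6 genes were the most like Apoe among 8612 compared. The measure was the root mean square difference of log2(FPKM + 1) over 10 libraries after each gene was centred on its own mean. The nearest was Sepp1, which encodes selenoprotein P, at 0.47 log2 units, where Apoe itself spread by 1.24 around its mean. It stood at 4.43 to 5.44 FPKM in young cumulus, 13.2 to 22.8 in old cumulus, 40.5 and 45.2 in mural cells, and at 4.37 and 16.2 in the BDF1 and DBA/2 complexes. Rerg (0.54), the macrophage marker Lyz2 (0.55), the smooth muscle actin Acta2 (0.56), Efhd1 (0.57) and the proteoglycan Bgn (0.59) came next. Lyz2 and Acta2 are in the marker lists above. All 6 were lower in each young cumulus library and in the BDF1 complex than in each old cumulus library. Nothing is read from this order, since the 6 were picked for profiles like that of Apoe in these same libraries. Both complexes were above every young cumulus library in Efhd1, Rerg and Bgn, only the DBA/2 complex was in Sepp1 and Lyz2, and neither was in Acta2.

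Of the receptors, Lrp1 and Lrp8 were lower in mural than in cumulus cells of young mice and passed the test, and Vldlr did not pass. LRP1 is a large endocytic receptor for many ligands, LRP8 (also called apolipoprotein E receptor 2) binds apolipoprotein E and reelin, and VLDLR, its close relative, binds apolipoprotein E-rich particles. Tests are from limma over 12412 genes with Benjamini-Hochberg adjustment, and 20.9% of all genes passed, 9.69% as higher and 11.2% as lower in mural cells. Of the 9 genes of the set, 7 passed the filter and 6 of these, all but Apoe, were tested, with 2 past the threshold, both lower. Mural and young cumulus libraries did not overlap in 6 of the 7, 2 upward and 4 downward, where 57.6% of all genes did not, 25.6% upward and 32% downward.

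Lrp1 stood at 119.7, 112 and 92.5 FPKM in young cumulus and at 64.5 and 48.6 FPKM in mural cells. The groups did not overlap (log2 fold change -0.93 ± 0.23 SE, adjusted p = 0.0298, limma). The call was lost when single libraries were left out: the adjusted p was 0.0729 and 0.208 when mural replicate 1 or 2 was omitted, and 0.0824 and 0.0864 when young cumulus replicate 1 or 2 was, with the lower mean in mural cells in each. With all libraries kept and each rescaled to the same FPKM sum, the log2 fold change was -0.67 (adjusted p = 0.0481, limma). Old cumulus cells lay between, at 98.9, 72.5 and 60.7 FPKM, and overlapped the young and the mural libraries. Their mean was 77.4 ± 19.5 against 108 ± 14.0 FPKM in young ones (SD, n = 3 each; log2 fold change -0.50 ± 0.21 SE, or -0.34 without old replicate 3). Lrp1 was the receptor with the highest level in every library per length of transcript, with 63.2 to 77.7% of the summed FPKM of the 3 receptors.

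Lrp8 stood at 36.9, 34.1 and 30.2 FPKM in young cumulus and at 14.1 and 19.1 FPKM in mural cells. Again the groups did not overlap (log2 fold change -0.99 ± 0.20 SE, adjusted p = 0.0137, limma), and the means differed 2.04-fold. The adjusted p was 0.0966 without mural replicate 1 and 0.0671 without mural replicate 2. With all libraries kept and each rescaled to the same FPKM sum, the log2 fold change of mural against young cumulus was -0.75 (adjusted p = 0.0235, limma). Old cumulus cells were at 33.9, 27.8 and 23.9 FPKM, which overlapped the young range and not the mural one (log2 fold change of old against young -0.24 ± 0.18 SE). Without old replicate 3 it was -0.13, and without old replicate 1 it was -0.37.

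Vldlr had its highest levels in old cumulus cells, at 18.1, 8.55 and 11.5 FPKM. It stood at 6.41, 7.44 and 8.40 FPKM in young cumulus cells, so all old libraries lay above all young ones, the nearest pair being 8.55 and 8.40 FPKM. The log2 fold change was 0.65 ± 0.25 (SE), and here replicate 1, not replicate 3, was the highest. It was 0.38 without old replicate 1 and 0.69 without old replicate 3. In mural cells Vldlr was at 4.48 and 4.36 FPKM, below all cumulus libraries of either age. The difference from young cumulus did not pass (log2 fold change -0.63, 95% interval -1.27 to 0.01, adjusted p = 0.143, limma), though it did when only those groups were fitted (adjusted p = 0.0449). Lrp8 was 3.60 to 5.76 times as high as Vldlr per length in young cumulus cells, 1.87 to 3.25 times in old ones and 3.14 and 4.38 times in mural cells.

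**Figure D3:**
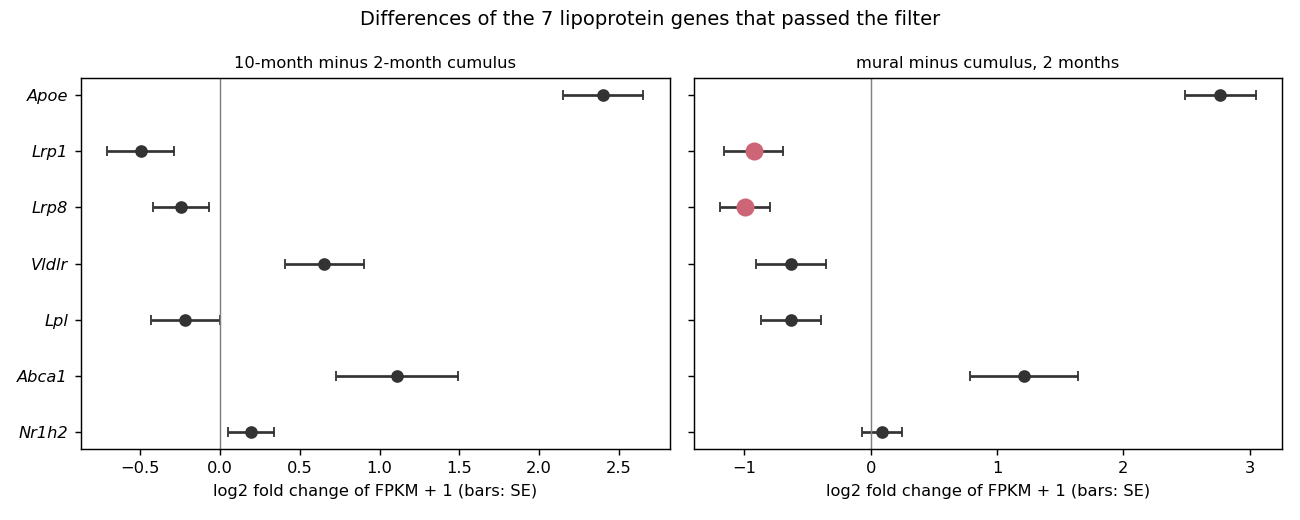
Log2 fold changes of FPKM + 1 with SE bars for the 7 genes that passed the filter, for old against young cumulus (left, no test made) and mural against young cumulus cells (right), with larger coloured points at an adjusted p of at most 0.05 in limma. Lrp1 (-0.93) and Lrp8 (-0.99) are the coloured points, and Apoe lies farthest from 0 on both sides, at 2.40 and 2.77.

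Lpl, the enzyme that frees fatty acids from triglyceride-rich lipoproteins, was tested for mural against young cumulus cells only, and that difference did not pass the threshold. It stood at 22.7, 27.5 and 22.5 FPKM in young cumulus, 22.1, 21.8 and 18.3 in old cumulus, and 20.5 and 11.3 FPKM in mural cells. Old libraries lay below young ones by a narrow margin, 22.1 against 22.5 FPKM (log2 fold change -0.22 ± 0.21 SE, or -0.13 without old replicate 3). The mural difference did not pass (log2 fold change -0.63, 95% interval -1.18 to -0.08, adjusted p = 0.0982, limma), and the mural libraries differed from each other by more than mural replicate 1 differed from cumulus cells. Without mural replicate 1 it passed (log2 fold change -1.03, adjusted p = 0.0409), and without mural replicate 2 it was -0.23 with an adjusted p of 0.558.

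Of the exporters, Abca1, which loads cholesterol onto apolipoproteins, stood at 2.49, 2.94 and 2.58 FPKM in young cumulus cells. In old cumulus cells it was at 7.69, 3.18 and 12.6 FPKM and in mural cells at 6.70 and 8.38 FPKM. All old libraries were above the young ones, but replicate 2 only just (3.18 against 2.94), and the log2 fold change was 1.11 ± 0.38 (SE), or 0.72 without replicate 3. The replicate with the least Apoe of the old group, replicate 1, was not the one with the least Abca1. Mural and young cumulus cells did not overlap, and the difference did not pass (log2 fold change 1.21, 95% interval 0.22 to 2.21, adjusted p = 0.0811, limma). It did pass without 10-month replicate 2 (0.0164) or 3 (0.0336), which add to the shared estimate of spread, and when only those groups were fitted (0.0113).

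Abcg1, which exports cholesterol to mature high-density lipoprotein, was under 1 FPKM everywhere and was not tested. It stood at 0.0351, 0.0369 and 0.170 FPKM in young cumulus, 0.242, 0.0648 and 0.328 in old cumulus and 0.388 and 0.707 FPKM in mural cells. Its highest levels were in the complexes, at 0.853 FPKM in BDF1 and 0.870 FPKM in DBA/2. At such levels the depth, which is unknown, limits what can be told.

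The LXR genes were expressed unequally. Nr1h2 (LXR beta) stood at 39.5, 33.6 and 32.1 FPKM in young cumulus, 43.8, 43.4 and 33.7 in old cumulus and 37.1 and 37.3 in mural cells. It was the steadiest gene of the set, with the highest of 10 libraries 1.61 times the lowest. Its log2 fold change was 0.19 ± 0.14 (SE) for old against young, or 0.31 without old replicate 3, and 0.09 for mural against cumulus (95% interval -0.28 to 0.46, adjusted p = 0.724, limma).

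Nr1h3 (LXR alpha), itself a known LXR target, stood at 1.61, 0.389 and 0.598 FPKM in young cumulus, 0.142, 1.37 and 0.577 in old cumulus and 0.957 and 1.18 in mural cells. It missed the filter and was not tested, and the mural pair lay inside the young and the old cumulus ranges. Per length, Nr1h2 was 24.6 to 309 times as high as Nr1h3 over the 10 libraries. In the RefSeq annotation Nr1h3 overlaps Acp2, and whether the counting used strand is unknown, so its low values may hold reads of that gene.

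The complexes hold an oocyte as well as cumulus cells and have 1 library per strain, so they are given as values with no test. Both stood above young cumulus cells in Nr1h2 (51.7 FPKM in BDF1 and 49.8 in DBA/2), in Abca1 (4.05 and 5.26 FPKM) and in Abcg1. Both stood below young cumulus cells in Lrp1 (90.6 and 82.99 FPKM), Lrp8 (28.6 and 23.4 FPKM) and Vldlr (6.07 and 4.04 FPKM). The complex libraries differed most from each other in Apoe, at 7.63 FPKM in BDF1 and 17.9 in DBA/2. The macrophage list summed to 10.6 FPKM in BDF1 and 17.0 FPKM in DBA/2. Of its 22 markers, 2 in BDF1 and 6 in DBA/2 reached 1 FPKM, and 15 and 11 were listed at 0. A link of these markers with Apoe was not tested. Strain and age differ together between complexes and cumulus libraries and cannot be told apart, and whether priming also differs is not known.

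Beyond the set, 102 other genes of lipoprotein and sterol handling were in the table, and 73 passed the filter. These lists were made by function, with earlier results of these data known. In mural against young cumulus cells 21 of 73 passed, 15 as higher and 6 as lower in mural cells, which is 28.8% against 20.9% of all genes. The count of 21 was 8 and 0 when mural replicate 1 or 2 was omitted, so each call named in these lists was lost in the latter fit, and it was 13, 9 and 13 when young cumulus replicate 1, 2 or 3 was. The median log2 fold change was 0.15, against -0.08 for all genes tested. With library sums made equal the split was 20 higher and 3 lower, and the median of all genes moved to 0.15. With the replicate number as a block it was 12 higher and 10 lower. In old against young cumulus cells 0 of 73 passed, as did 0 of all 12412 genes (0%, smallest adjusted p = 0.0869, limma). When old replicate 2 was omitted, 245 of all genes and 2 of the 73 passed, Arl4c (adjusted p = 0.0466) and Cav1 (adjusted p = 0.0241). Before adjustment, 33 of the 73 and 36.8% of all genes had p under 0.05 between mural and young cumulus cells. For age the same held for 15 of the 73 and 13.9% of all genes. Old and young libraries did not overlap in 11 of the 73 upward and in 8 downward, 26% against 17.8% of all genes. Of the set of 9, 7 passed the filter and 3 of these were without overlap upward (Apoe, Vldlr and Abca1; 8.93% of all genes) and 1 downward (Lpl; 8.88% of all genes), from which nothing is read, since this comparison chose the set.

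**Figure D4:**
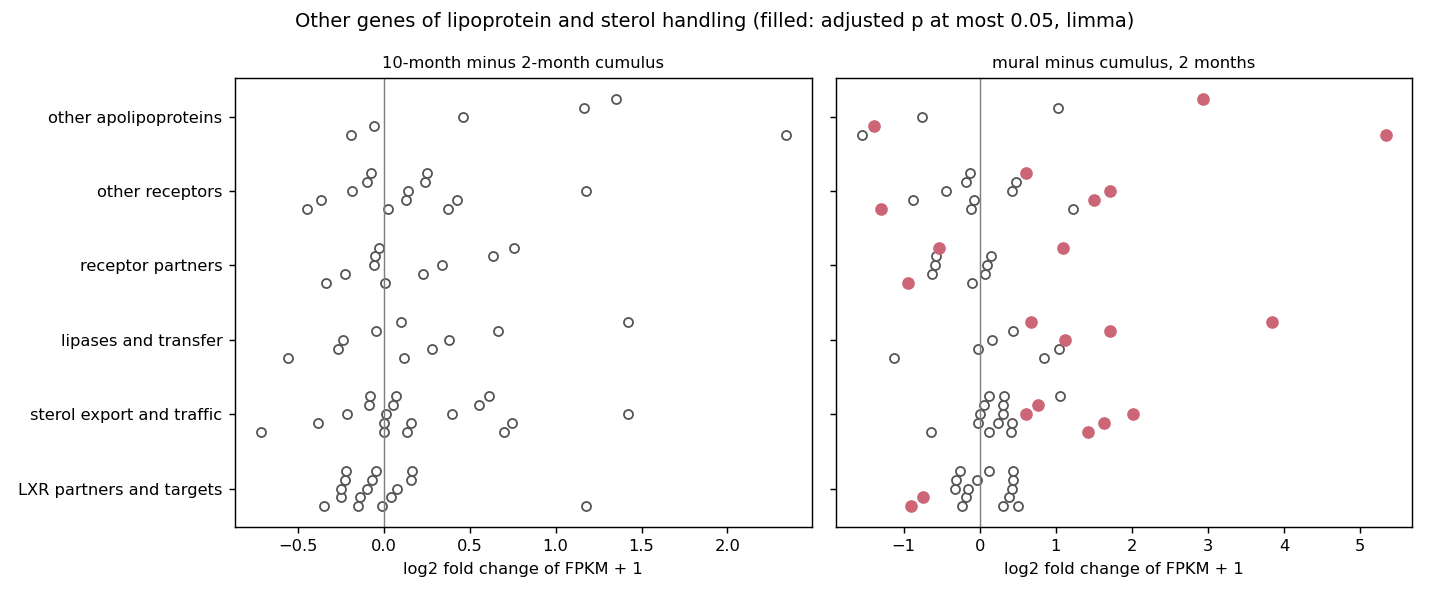
Log2 fold changes of the 73 other tested genes by list, for old against young cumulus (left) and mural against young cumulus cells (right); filled points passed an adjusted p of 0.05 in limma and the height within a row has no meaning. There are 0 filled points on the left and 21 on the right, among them the lipases, with 4 higher in mural cells, and sterol traffic genes, with 5 higher.

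Among 6 other apolipoproteins tested, 2 rose and 1 fell in mural against cumulus cells, 50% against 20.9% of all genes. Clu (clusterin, also called apolipoprotein J) was at 528 ± 0.750 against 69.0 ± 10.3 FPKM (n = 2 and 3; log2 fold change 2.93, adjusted p = 0.00486, limma). In old cumulus cells Clu was at 114, 116 and 279 FPKM, above all young libraries (63.0 to 80.8 FPKM), and the age difference did not pass (log2 fold change 1.16, adjusted p = 0.240, or 0.74 without old replicate 3). Saa3, an acute-phase protein carried on lipoproteins, was at 32.3 and 63.6 FPKM in mural cells, listed at 0, 0 and 0.487 FPKM in young cumulus and at 4.16, 1.11 and 16.6 in old cumulus cells (adjusted p = 0.00631 for mural and 0.248 for age). Its log2 fold change for age was 2.34, or 1.53 without old replicate 3.

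Of 13 other receptors tested, 3 rose and 1 fell in mural cells, 30.8% against 20.9% of all genes. Scarb1, the receptor that takes cholesterol esters from high-density lipoprotein, was at 424 and 778 FPKM in mural and 174 to 220.01 in young cumulus cells (log2 fold change 1.51, adjusted p = 0.0108, limma). Lrp5, a relative of LRP1 that serves as a Wnt co-receptor, went the other way, at 31.9 and 29.8 against 69.1 to 91.7 FPKM (log2 fold change -1.29, adjusted p = 0.0104). With age, Scarb2 (25.2 against 32.9 FPKM by mean, adjusted p = 0.298) and Lsr (6.64 against 2.33, adjusted p = 0.307) had the smallest p and did not pass. Among 10 receptor partners, 1 rose and 2 fell in mural cells, 30% against 20.9% of all genes. The endocytic adaptor Dab2 was among those that fell (64.4 against 93.7 FPKM by mean, log2 fold change -0.54, adjusted p = 0.0216, limma). Mylip, a known LXR target that marks lipoprotein receptors for degradation, was at 6.36, 3.10 and 2.70 FPKM in old and 1.58 to 2.07 in young cumulus cells (adjusted p = 0.298). Hspg2, the heparan sulfate proteoglycan perlecan, had means of 13.7 FPKM in old and 8.21 FPKM in young cumulus cells, with overlapping libraries (adjusted p = 0.381, limma).

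Of 10 lipases and transfer factors, 4 rose and 0 fell in mural cells, 40% against 20.9% of all genes, or 9.69% called higher. Lipa, the lysosomal acid lipase that frees cholesterol from taken-up lipoproteins, was at 18.0 and 19.9 against 4.78 to 5.46 FPKM (log2 fold change 1.71, adjusted p = 0.00856, limma), and Lipg, endothelial lipase, at 15.9 and 63.2 against 1.21 to 1.38 FPKM (3.84, adjusted p = 0.0102). With age, Sel1l, needed for lipoprotein lipase to leave the endoplasmic reticulum, was at 34.5, 34.8 and 35.7 FPKM in old and 46.96 to 57.7 in young cumulus cells, a difference that did not pass (adjusted p = 0.197). Lipg was at 2.40, 3.91 and 13.1 FPKM in old cumulus cells (log2 fold change 1.42, adjusted p = 0.357, or 0.82 without old replicate 3). The 10 endothelial markers summed to 36.4 and 81.6 FPKM in the mural libraries, in the same order as Lipg, and their part in its level was not tested.

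Of 18 genes of sterol export, storage and traffic, 5 rose and 0 fell in mural cells, 27.8% against 20.9% of all genes. Soat1, which esterifies cholesterol for storage, was at 127 and 169 against 31.1 to 39.7 FPKM (log2 fold change 2.02, adjusted p = 0.00567, limma). Npc2, which carries cholesterol out of the lysosome, was at 64.7 and 94.8 against 27.5 to 29.7 FPKM (1.42, adjusted p = 0.00625). With age, Nceh1, a cholesterol ester hydrolase, was at 10.6, 11.6 and 7.96 FPKM in old and 15.5 to 19.3 in young cumulus cells (adjusted p = 0.212), and Cav1, the caveolae protein, at 8.21, 3.76 and 12.1 against 1.95 to 2.32 FPKM (adjusted p = 0.213).

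Of 16 LXR partners and targets, 0 rose and 2 fell in mural cells, 12.5% against 20.9% of all genes. These were the LXR partner Rxra (7.54 and 5.78 against 9.19 to 13.8 FPKM, adjusted p = 0.0399, limma) and the nuclear receptor Pparg (48.7 and 54.3 against 89.6 to 109 FPKM, adjusted p = 0.00659). With age, the median log2 fold change of the list was -0.08, against -0.02 for all genes. Arl4c, a known LXR target, was at 5.24, 2.80 and 8.13 FPKM in old and 1.19 to 2.09 in young cumulus cells (adjusted p = 0.237), and Scd2, a stearoyl-CoA desaturase with near-identical relatives, had means of 461 and 587 FPKM (adjusted p = 0.342).

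The profiles nearest to the other genes of the set were closer in absolute distance, and those genes varied less than Apoe. Lrp1 was nearest to Fanca (0.12 log2 units) and Snx18 (0.15), and Lrp8 to Snrpd3 (0.11) and Ddx39 (0.11). Vldlr was nearest to Rela (0.17) and Nars (0.18), and Abca1 to Lgr4 (0.17) and Tgfbr1 (0.19). Lpl was nearest to Tctn1 (0.16) and Pacs1 (0.17), and Nr1h2 to Stk25 (0.08) and Becn1 (0.09). Abcg1 (nearest to Chfr, 0.11, and Tram1, 0.11) and Nr1h3 (Elmod3, 0.20, and Cxx1b, 0.20) were too low for their nearest profiles to be read.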

How the data were processed

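Levels are FPKM as deposited, a single table for the 10 libraries. The submitters' processing notes name TopHat2 2.1.0, Cufflinks 2.1.0 and the build mm9, and the authors' annotation, filters and strand setting were not found in the labels. Of the table, 1 repeated header line was dropped, and 23234 symbols remained, with 0 repeated. The reference is of another build, so it gave names, neighbours and promoters only.

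Fits used log2(FPKM + 1), a scale on which low genes change less. Genes with a mean of at least 1 FPKM over the 8 C57BL/6 libraries entered 1 fit with a term per group (5 residual degrees of freedom, limma 3.58.1 with an intensity trend, R 4.3.3; Python 3.11.15 for the rest). Tests were two-sided, and p-values were adjusted by Benjamini-Hochberg over all genes fitted (threshold 0.05). The comparisons share the young cumulus libraries. The code was tested on simulated data. The 9 genes and all lists were chosen with earlier results of these data known. The text names all 9 genes, the 2 genes per wider list with the smallest p in each comparison, and the nearest profiles (6 for Apoe, 2 for each other gene, among genes with a mean of at least 5 FPKM). Of the genes that this rule takes, 1 is not reported here. Alternatives changed the pseudocount, filter, scaling, trend, block and libraries.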

Additional observations from a re-analysis of the deposited data

How the results depend on the processing

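Under 16 alternatives the log2 fold change of Apoe stayed between 2.19 and 2.71 for age and between 2.69 and 3.01 for mural cells. No log2 fold change of the 7 genes changed sign under any alternative. The count of called genes of the set in mural against cumulus cells was 2 of 6. With no filter on low values it was 1: Lrp8 passed (adjusted p = 0.0369, limma) and Lrp1 did not (adjusted p = 0.0783, limma). It was 4 when only the groups compared were fitted. With equal library sums it stayed at 2, but the downward mural differences were smaller than in the main fit. The log2 fold changes were then -0.67 for Lrp1, -0.75 for Lrp8, -0.41 for Vldlr and -0.39 for Lpl. When single cumulus libraries were left out it was between 1 and 3, and 1 without young cumulus replicate 1 or 2. Without mural replicate 1 or 2 the log2 fold change was -1.13 or -0.73 for Lrp1 and -0.79 or -1.20 for Lrp8. The count of 21 of the 73 other genes was between 0 and 23 when single libraries were left out: without a mural library it was 8 (replicate 1) or 0 (replicate 2), and without a young cumulus library 13, 9 and 13 (replicates 1 to 3). Leaving out a mural library leaves 1, assumed to vary like the others. Over all genes 2599 were called, 800 or 99 without mural replicate 1 or 2, and 1698 or 1164 without young cumulus replicate 1 or 2. The share called as higher was 46.3%, and 69.6% with equal library sums. For age, 0 of the 73 were called, and 0 to 2 when single libraries were left out: Arl4c (adjusted p = 0.0466) and Cav1 (0.0241) passed without 10-month replicate 2. Over all genes 0 were called for age, 245 without 10-month replicate 2, 6 without 10-month replicate 1 and 5 with no filter. The cause of these changes was not tested beyond the fewer libraries and other genes in each fit. Same-numbered libraries correlated at 0.01, 0.12 and 0.15 for the cumulus pairs and at 0.03 and 0.21 for young cumulus with mural cells (deviations from group means, across genes). For old cumulus with mural cells the values were 0.05 and -0.05. The deviations of the 2 mural libraries mirror each other, so the values for mural cells are not independent. Not every pair was over 0.1, so the numbers were not taken as pairs. With the replicate block 2 genes of the set and 22 of the 73 (12 higher, 10 lower) were called in mural against cumulus cells and 0 of the 73 for age, and Apoe was at 2.40 for age.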

Other observations

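Apoa4 and Apoa1, apolipoproteins best known from the intestine and liver, were singled out after their values were seen. Apoa4 had the higher level per length of Apoa4 and Apoe in each of the 10 libraries. It stood at 339, 264 and 206 FPKM in young cumulus, 296, 291 and 143 in old cumulus, 135 and 74.1 in mural cells, and 394 and 412 in the BDF1 and DBA/2 complexes. It fell in mural against young cumulus cells (log2 fold change -1.39 ± 0.40 SE, adjusted p = 0.0435, limma). For age its log2 fold change was -0.19 (adjusted p = 0.866), and old and young libraries overlapped. Apoa1 stood at 96.0, 66.0 and 52.0 FPKM in young cumulus, 134, 136 and 47.9 in old cumulus and 38.4 and 13.6 in mural cells, a mural difference that did not pass (adjusted p = 0.0890). Old replicate 3, which stood apart in mural markers, had the lowest Apoa1 and Apoa4 of the old group. Its Apoa4 (143 FPKM) was near that of mural replicate 1 (135 FPKM). Its Apoa1 (47.9 FPKM) was nearer to the lowest young cumulus library (52.0 FPKM) than to mural replicate 1 (38.4 FPKM). A link with its mural markers was not tested. Apob, the core protein of low-density lipoproteins, was listed at 0 in 9 of 10 libraries.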
